A study of Homo sapiens with 9 samples.

Results

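The collagen genes of HMC3 cells were examined across 2 doses of a senescence-inducing cocktail. Members were all protein-coding genes in the deposited count list whose symbol consists of COL, a type number, A and a chain number. This gave 44 of the 61544 genes listed. By the structure of the protein, 11 encode fibrillar collagens, 6 the type IV collagens of basement membranes, 3 short-chain collagens, 5 type VI collagens, 10 FACITs (collagens that sit on the surface of fibrils), 4 transmembrane collagens, 2 multiplexins and 1 the type VII collagen of anchoring fibrils. The remaining 2, COL26A1 and COL28A1, belong to none of these classes.

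Collagens are secreted matrix proteins built from α chains that wind around each other into a helix. Chains of fibrillar collagens form the banded fibrils of connective tissue, and type IV chains form the sheet of the basement membrane. The short-chain collagen of type VIII forms hexagonal lattices in vessel walls and under endothelia. Fibroblasts, smooth muscle cells and pericytes are the usual makers of fibrillar collagen, and microglia of the healthy brain are not known as a main source of it.

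HMC3 is a line of human microglial origin, made immortal by the large T antigen of SV40. All cells were grown on gelatin-coated plastic, gelatin being denatured collagen, and were exposed for 6 days. VEH cells received DMSO alone. SLO cells received SBI-0206965 at 10 µM (a ULK1 inhibitor that blocks autophagy), O-151 at 1 µM (an inhibitor of the DNA glycosylase OGG1) and Lopinavir at 1 µM (an HIV protease inhibitor that also blocks lamin A maturation), dissolved in DMSO. SLO ½ cells received the same agents at 5, 0.5 and 0.5 µM. Each group had 3 libraries of polyadenylated RNA, all from this 1 line. The compounds were given together, so the part of each cannot be told apart. No source states that the libraries came from separate cultures, so that p-values measure the spread between these libraries, which may be technical.

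Libraries held 14834295 to 19674841 reads on genes. Collagen genes took 0.449% to 0.521% of these reads in VEH libraries, 0.637% to 0.655% at the lower dose and 0.833% to 0.879% at the full dose, with VEH replicate 3 the lowest. Markers of microglia were scarce: 2 of 12 were expressed at a testable level (CSF1R and TREM2), P2RY12, TYROBP and C1QA had no read in any library, and the 12 summed to 1.46 to 2.52 TPM (reads scaled by gene length and library total) in VEH. The same sum was 4.11 to 6.31 TPM in SLO ½ and 4.80 to 5.08 TPM in SLO. Of 10 fibroblast or pericyte markers, 7 were testable, with sums of 276 to 285, 365 to 382 and 337 to 357 TPM in the same order. THY1 carried most of that sum, whereas the fibroblast markers DCN, LUM and FAP were not testable. Within the list PDGFRB, a pericyte marker, fell at both doses, from a mean of 60.2 TPM in VEH to 41.1 in SLO ½ and 49.2 in SLO. The pericyte markers CSPG4 and RGS5 rose at both doses. Their means were 21.2 and 1.81 TPM in VEH, 36.3 and 4.01 in SLO ½, and 42.4 and 5.11 in SLO. THY1 rose at both doses as well, and PDGFRA, TCF21 and S100A4 did not pass the test at either dose. The 6 endothelial markers summed to 0.732 to 1.11, 3.11 to 3.72 and 5.35 to 6.46 TPM (2 testable, KDR and VWF). CSF1R, TREM2, KDR and VWF were testable only through treated libraries, so that they had to be higher there. The 5 epithelial markers summed to 482 to 539, 498 to 501 and 341 to 356 TPM (2 testable, KRT8 and KRT18, KRT18 holding most). KRT8 rose at both doses, from a mean of 14.2 TPM in VEH to 24.0 in SLO ½ and 17.2 in SLO, while KRT18 fell in SLO, from 490 to 330.5 TPM. The part of these marker shifts in the collagen results was not tested. In bulk RNA, a change in the number of cells that make a transcript and a change in its amount per cell cannot be told apart.

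Of the 44 genes, 42 had at least 1 read, 33 had a read in every library and 27 were expressed highly enough to be tested (a count of about 10 at the median depth, or 0.608 CPM (counts scaled by library total), in at least 3 libraries). A mean of at least 1 TPM in some group was reached by 27 and a mean of at least 5 TPM by 15. By class, 8 of 11 fibrillar, 5 of 6 type IV, 2 of 3 short-chain, 2 of 5 type VI, 4 of 10 FACIT, 3 of 4 transmembrane, 2 of 2 multiplexin genes and COL7A1 were tested. COL6A5 and COL19A1 had no read, which over all 9 libraries allows up to 0.0199 CPM, for counting error only. The other 15 untested genes had at most 14 reads in a library. Among them was COL3A1, whose homotrimer accompanies type I collagen in skin and vessels, with no read in the VEH libraries and totals of 8 reads in SLO ½ and 7 in SLO. COL6A3, the usual partner of COL6A1 and COL6A2 in type VI collagen, totalled 25, 23 and 21 reads in VEH, SLO ½ and SLO. COL4A3 totalled 10, 27 and 14. COL5A3, COL24A1, COL10A1, COL6A6, COL9A1, COL9A2, COL20A1, COL21A1, COL22A1, COL23A1, COL26A1 and COL28A1 complete the untested genes. These 17 genes were too low at this depth for the main test. Those with a read entered only the alternatives run without an expression filter.

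Sequences are shown for the start regions of genes that carry the rise described in the following paragraphs and that the RefSeq (GRCh38.p14) promoter set at hand held. COL4A1 and COL4A2 encode the chains of the common type IV heterotrimer. Their RefSeq start sites face away from each other with 126 bases between them. That interval lies inside the longer COL4A2 span that the authors give, which begins at 110305812. COL5A1 and COL11A1 encode chains that form the core of thin heterotypic fibrils. The COL11A1 window lies before the RefSeq start site but inside the longer gene span that the authors' files give, which ends at 103108872. Capitals mark GC boxes (GGGCGG) and CCAAT boxes (CCAAT) read on either strand, and the sequences run 5′ to 3′ on the strand named.
COL4A1 to COL4A2 interval, chr13:110307158-110307283, plus strand: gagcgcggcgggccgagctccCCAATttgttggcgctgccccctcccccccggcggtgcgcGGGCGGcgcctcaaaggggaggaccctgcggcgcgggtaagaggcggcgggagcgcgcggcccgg
COL11A1 upstream, chr1:103108523-103108772, minus strand: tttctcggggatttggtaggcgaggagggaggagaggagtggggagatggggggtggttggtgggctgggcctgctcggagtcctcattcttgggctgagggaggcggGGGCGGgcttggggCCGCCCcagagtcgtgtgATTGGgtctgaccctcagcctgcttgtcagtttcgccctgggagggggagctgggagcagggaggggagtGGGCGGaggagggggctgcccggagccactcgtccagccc
COL5A1 upstream, chr9:134641553-134641802, plus strand: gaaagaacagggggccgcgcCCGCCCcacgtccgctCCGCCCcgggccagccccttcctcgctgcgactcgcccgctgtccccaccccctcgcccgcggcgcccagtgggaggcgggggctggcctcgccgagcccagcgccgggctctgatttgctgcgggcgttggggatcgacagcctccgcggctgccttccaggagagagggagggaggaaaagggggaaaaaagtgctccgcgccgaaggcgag

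The shared interval holds 1 GC box and 1 CCAAT box, the COL11A1 window 3 GC boxes and 1 CCAAT box, and the COL5A1 window 2 GC boxes and no CCAAT box. In windows of 250 bases before to 50 after the start, GGGCGG was present in 18 of the 32 collagen genes in the RefSeq promoter set at hand. It was present in 44.6% of 27305 promoters of all genes. The set lacked COL1A1, COL1A2, COL5A2 and COL8A1, among others. CCAAT was present in 10 of 32 and 35.7%, TATAAA in 5 of 32 and 12.0%, and TGANTCA, the letters of an AP-1 site, in 0 of 32 and 7.76%. These are matches of letters in a window and not sites of a factor. COL4A4 with COL4A3 and COL4A6 with COL4A5 lay head to head as well, with 418 and 379 bases between their start sites.

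At the full dose the collagen genes rose broadly, and 2 fell. Of the 23 genes at the testable level in all 3 groups, 20 rose in SLO against VEH, 2 fell (COL8A1 and COL13A1) and COL8A2 did not pass the test (edgeR quasi-likelihood test, adjusted p below 0.05 over 14727 genes). Their median log2 fold change was 0.82. Over the 12882 genes that met the same condition, 31.9% rose, 35.5% fell, 67.4% were called in either direction and the median was -0.02. Another 4 genes met the testable level in every library of a treated group but not of VEH. COL2A1 and COL14A1 met it in no VEH library, so that they had to be higher with treatment. COL15A1 and COL17A1 missed it in VEH replicate 2, which leans their selection toward higher treated values. With these 4 genes, 26 of 27 were called, against 64.9% of all tested genes.

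In SLO ½, 16 of the 23 genes rose against VEH and the same COL8A1 and COL13A1 fell, with a median log2 fold change of 0.65. All genes alike in level were called in 54.4% of cases, 25.9% rising and 28.5% falling, with a median of -0.01. Of all 27 tested members 22 were called, against 52.0% of all tested genes, and COL1A2, COL4A4, COL4A5, COL8A2 and COL12A1 did not pass the test. Between the doses, 11 of the 23 were higher and 4 lower in SLO than in SLO ½, with a median of 0.26. Among all genes at the testable level in every group, 21.8% were higher, 22.3% lower and 44.1% called in either direction, with a median of -0.01. For all tested members the count was 18 of 27, against 41.1% of all tested genes. Over all tested genes 20.8% were higher and 20.3% lower. Both comparisons with VEH share the same 3 VEH libraries.

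Changes of at least 1 on the log2 scale were seen in 12 of the 23 genes in SLO, where 7.62% of genes alike in level reached this, and in 5 in SLO ½, against 3.45%. Among all 27 tested members they numbered 16 in SLO, 9 in SLO ½ and 2 between the doses (COL2A1 and COL14A1, neither of them among the 23), against 11.8%, 6.87% and 2.56% of all tested genes. In scaled counts, the 3 SLO libraries did not overlap the 3 VEH libraries in 22 of the 23 genes, where 68.8% of genes alike in level did not overlap. The SLO ½ libraries did not overlap VEH in 18 (60.5%), and the doses did not overlap each other in 15 (53.7%). For the 27 the counts were 26, 22 and 19, against 66.7%, 58.3% and 51.0% of all tested genes.

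**Figure D1:**
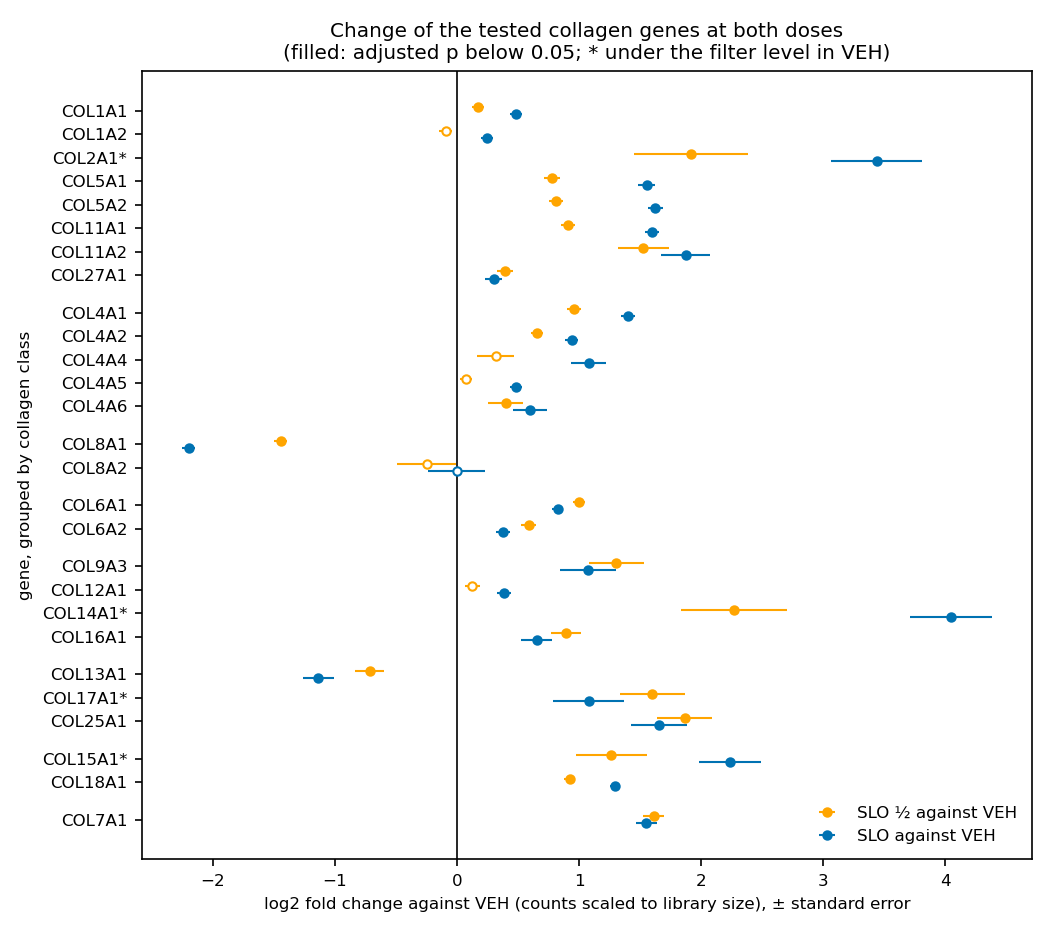
Log2 fold change against VEH (horizontal axis) of the 27 tested collagen genes, grouped by class, with SLO ½ in orange and SLO in blue. Counts were scaled by library size and TMM factors, and bars are ± standard error. Filled points passed an adjusted p of 0.05, and most points lie right of 0, with COL8A1 at -2.20 and COL13A1 at -1.14 in SLO on the left. Asterisks mark the 4 genes that did not reach the testable level in every VEH library.

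Fibrillar genes contributed the bulk of the collagen RNA. Of the 7 at the testable level in every group, 7 rose in SLO, 6 rose in SLO ½ (COL1A2 did not pass the test) and 5 were higher in SLO than in SLO ½, where 31.9%, 25.9% and 21.8% of genes alike in level did so. COL2A1, the 8th tested, was called as higher in each of these comparisons but passed the filter only through SLO. COL1A1 (ENSG00000108821.14, chr17:50184101-50201632), the main chain of type I collagen, read 1213, 1362 and 1135 TPM in the VEH libraries, 1341, 1348 and 1361 in SLO ½ and 1735, 1671 and 1753 in SLO. All SLO libraries lay above all others, while SLO ½ overlapped VEH on this scale. On TMM-scaled counts the log2 fold change was 0.48 ± 0.05 (SE) in SLO (adjusted p = 8.18e-10) and 0.17 ± 0.05 in SLO ½ (adjusted p = 0.00465). The SLO ½ call was lost without VEH replicate 3 (0.11, adjusted p = 0.0606) and with limma on log2(TPM + 1) (0.13, adjusted p = 0.0904, or 0.228 without a filter). Limma on log2(TPM + 0.1) lost it too (0.13, adjusted p = 0.0865). COL1A1 was the most abundant collagen gene in every group, and its rank among all genes by TPM was 53 to 73 in VEH libraries, 48 to 51 with SLO ½ and 36 to 37 with SLO.

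COL1A2 (chr7:94394895-94431227) encodes the other chain of type I collagen, which has 1 α2 chain for each pair of α1 chains. It read 43.2, 44.2 and 37.0 TPM in VEH, 37.3, 37.7 and 38.0 in SLO ½ and 49.8, 47.3 and 49.5 in SLO. The SLO libraries were above the others and SLO ½ lay within the VEH range. The log2 fold change was 0.25 ± 0.05 in SLO (adjusted p = 0.000135), or 0.17 without VEH replicate 3, and -0.09 ± 0.05 in SLO ½ (adjusted p = 0.136). Without VEH replicate 3, the SLO ½ value was -0.18 and passed the test as a fall (adjusted p = 0.00288).

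The main chains of the minor fibrillar collagens V and XI had higher fold changes than the type I chains. COL5A1 (chr9:134641803-134844843) read 89.7, 96.4 and 68.6 TPM in VEH, 139, 139 and 145 in SLO ½ and 243, 241 and 258 in SLO. COL5A2 (chr2:189031898-189225312) read 179, 157 and 139 TPM, then 275, 265 and 271, then 489, 455 and 514. COL11A1 (chr1:102876467-103108872) read 169, 144 and 138 TPM, then 277, 264 and 282, then 458, 421 and 479. In all 3 genes the groups were fully separated and ordered by dose. The log2 fold changes in SLO were 1.55 ± 0.07 (COL5A1), 1.62 ± 0.06 (COL5A2) and 1.60 ± 0.06 (COL11A1), with adjusted p = 1e-17, 1.7e-19 and 6.33e-20. In SLO ½ they were 0.78, 0.81 and 0.91 (adjusted p = 1.3e-10, 3.12e-12 and 7.38e-14). The step from SLO ½ to SLO was 0.77, 0.81 and 0.69 (adjusted p = 1.6e-10, 4.52e-12 and 3.88e-11).

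COL27A1, COL11A2 and COL2A1 were the less abundant fibrillar genes. COL27A1 (chr9:114155537-114312511), a fibrillar collagen of cartilage, read 12.3, 13.1 and 12.6 TPM in VEH, 15.6, 16.7 and 16.2 in SLO ½ and 13.5, 17.2 and 15.8 in SLO. Both treated groups lay above VEH and overlapped each other. The log2 fold change was 0.30 ± 0.07 in SLO (adjusted p = 0.000293) and 0.40 ± 0.07 in SLO ½ (adjusted p = 1.16e-05). COL11A2 (chr6:33162681-33192499), the second chain of type XI collagen, read 0.886, 1.05 and 0.770 TPM in VEH, 1.99, 2.72 and 2.82 in SLO ½ and 3.24, 3.74 and 2.79 in SLO. Its log2 fold change was 1.87 ± 0.20 in SLO and 1.52 ± 0.21 in SLO ½ (adjusted p = 2.55e-09 and 4.57e-07), or 1.16 and 0.88 with limma on log2(TPM + 1), and the doses, which overlapped, did not pass the test against each other (0.35, adjusted p = 0.0832). COL2A1 (chr12:47972967-48004554), the main collagen of cartilage, had 2, 5 and 4 reads in VEH, 21, 7 and 16 in SLO ½ and 43, 38 and 38 in SLO. The gene passed the filter only through the SLO libraries. It was below the level of 5 TPM in every library and reached a mean of 1.72 ± 0.14 TPM (SD, n = 3) in SLO, with a log2 fold change of 3.44 ± 0.37 (adjusted p = 2.97e-09). In SLO ½ the value was 1.92 ± 0.46 (adjusted p = 0.000934). With limma on log2(TPM + 1) the values were 1.24 and 0.44, and without a filter the SLO ½ call was lost (adjusted p = 0.103).

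**Figure D2:**
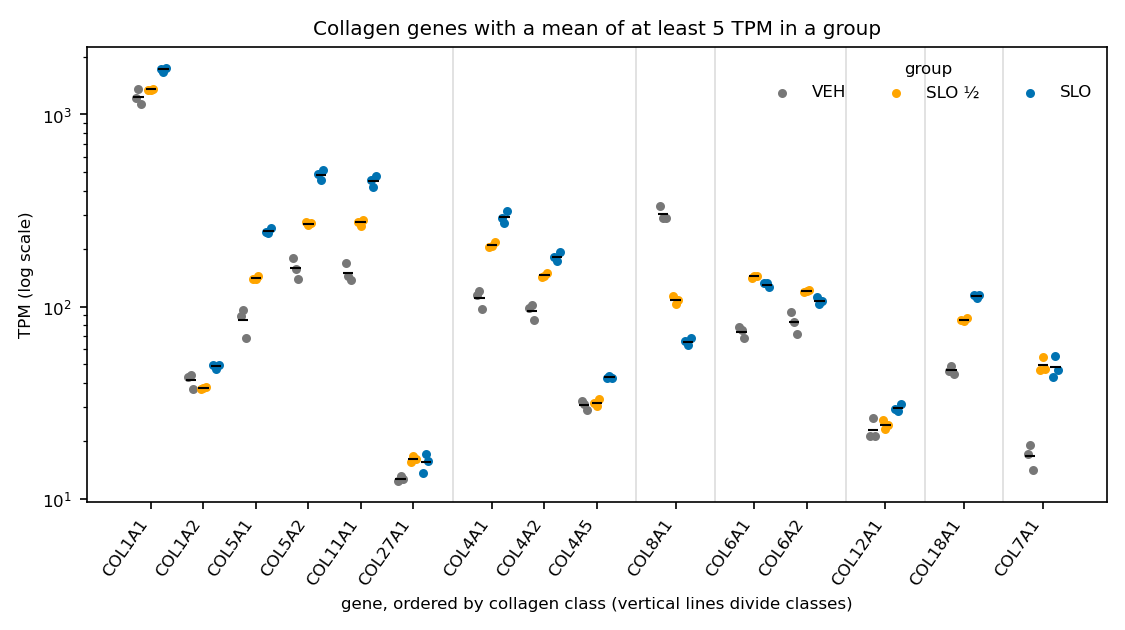
TPM on a log scale (vertical axis) of the 15 collagen genes with a mean of at least 5 TPM in a group, ordered by class along the horizontal axis. Points are libraries (VEH grey, SLO ½ orange, SLO blue) and bars are group means. COL5A1, COL5A2, COL11A1, COL4A1, COL4A2 and COL18A1 climb from VEH through SLO ½ to SLO, COL8A1 descends from a mean of 303 to 65.7 TPM, and COL6A1 and COL6A2 peak in SLO ½.

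All 5 tested type IV genes were at the testable level in every group and rose in SLO, where 31.9% of genes alike in level rose. In SLO ½ 3 of the 5 rose (COL4A1, COL4A2 and COL4A6, against 25.9%), and 4 were higher in SLO than in SLO ½ (against 21.8%). COL4A1 (ENSG00000187498.16, chr13:110148963-110307157) read 115, 121 and 97.3 TPM in VEH, 204, 207 and 217 in SLO ½ and 289, 272 and 313 in SLO. COL4A2 (ENSG00000134871.19, chr13:110305812-110513209) read 98.4, 102 and 85.4 TPM, then 142, 145 and 150, then 180, 173 and 191. Both chains of this collagen, whose shared interval is printed above, were separated by group and ordered by dose. COL4A1 rose by 1.40 ± 0.06 in SLO and 0.96 ± 0.06 in SLO ½ on the log2 scale (adjusted p = 2.22e-18 and 3.63e-14). COL4A2 rose by 0.94 ± 0.05 and 0.65 ± 0.05 (adjusted p = 1.14e-15 and 1.12e-11). The gene spans overlap on opposite strands, and the deposited reads were counted by strand.

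The other type IV genes encode the chains of specialised basement membranes. COL4A5 (chrX:108439838-108697545) read 32.4, 31.3 and 29.1 TPM in VEH, 31.4, 30.5 and 32.9 in SLO ½ and 42.4, 43.6 and 42.7 in SLO. It was higher in SLO than in VEH and SLO ½ (log2 fold change 0.48 ± 0.05 and 0.41 ± 0.05, adjusted p = 3.1e-10 and 3.2e-08). SLO ½ overlapped VEH, with a log2 fold change of 0.08 (adjusted p = 0.189), and passed the test when counts were scaled by library size alone (0.12, adjusted p = 0.0275). COL4A4 (chr2:227002714-227164453) read 1.96, 1.97 and 1.32 TPM in VEH, 2.06, 2.37 and 1.80 in SLO ½ and 3.46, 3.68 and 3.74 in SLO. Its pattern was of the same kind, with 1.08 ± 0.14 in SLO (adjusted p = 1.35e-07) and 0.32 ± 0.16 in SLO ½ (adjusted p = 0.0905, and 0.0451 without VEH replicate 1). COL4A6 (chrX:108155607-108439497) had means of 2.40 ± 0.29, 3.09 ± 0.40 and 3.63 ± 0.42 TPM in VEH, SLO ½ and SLO. The log2 fold change was 0.60 ± 0.14 in SLO (adjusted p = 0.000425) and 0.40 ± 0.14 in SLO ½ (adjusted p = 0.0193). The SLO ½ call was lost without VEH replicate 2, without SLO ½ replicate 2 and without SLO ½ replicate 3 (adjusted p = 0.0884, 0.0724 and 0.104), and with DESeq2 (adjusted p = 0.0536). It was also lost with limma on log2(TPM + 1) (adjusted p = 0.0767, or 0.266 without a filter) and on log2(TPM + 0.1) (adjusted p = 0.0852).

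The short-chain class went the other way through a single gene. COL8A1 (ENSG00000144810.16, chr3:99638475-99799226), the α1 chain of type VIII collagen of vessel walls and the subendothelial matrix, read 334, 288 and 287 TPM in VEH, 113, 103 and 109 in SLO ½ and 66.2, 62.8 and 68.3 in SLO. The groups did not overlap and the order followed the dose. The standard errors of its log2 fold changes, -2.20 in SLO, -1.45 in SLO ½ and -0.75 from SLO ½ to SLO, were all 0.05 (adjusted p = 5.59e-24, 2.25e-19 and 3.44e-12). In VEH it was second only to COL1A1 among the collagens in TPM, and it was 9th in SLO ½ and 10th in SLO. Its rank among all genes was 450 to 578 in VEH libraries, 1731 to 1859 with SLO ½ and 2987 to 3176 with SLO.

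COL8A2 (chr1:36095239-36125222), the α2 chain of the same collagen, read 2.79, 1.86 and 1.53 TPM in VEH, 1.62, 1.65 and 1.72 in SLO ½ and 2.55, 1.83 and 1.67 in SLO. The groups overlapped, and the log2 fold changes were -0.00 ± 0.24 in SLO (adjusted p = 0.993) and -0.25 ± 0.24 in SLO ½ (adjusted p = 0.402). COL10A1, the collagen of hypertrophic cartilage and the remaining short-chain gene, had at most 1 read in a library.

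Summed over the class, fibrillar genes had 1686 ± 145 TPM in VEH libraries, 2093 ± 22.1 with SLO ½ and 2975 ± 109 with SLO (SD, n = 3). Type IV genes had 241 ± 22.5, 392 ± 12.2 and 523 ± 29.1 TPM. Short-chain genes had 305 ± 27.1, 110 ± 5.04 and 67.8 ± 2.83 TPM. Relative to VEH, the SLO sum was 1.76 times as high for fibrillar and 2.17 times for type IV genes, and the VEH sum was 4.50 times the SLO sum for short-chain genes. All 44 genes summed to 2486 ± 193, 3034 ± 34.4 and 4011 ± 139 TPM. No library of one group overlapped another group in any of these sums.

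The make-up of the collagen RNA moved with these sums. Fibrillar genes held 67.8% ± 1.29 of all collagen TPM in VEH libraries, 69.0% ± 0.15 with SLO ½ and 74.2% ± 0.19 with SLO, and the VEH and SLO ½ libraries overlapped. Type IV genes held 9.70% ± 0.16, 12.9% ± 0.27 and 13.0% ± 0.30, with the treated groups overlapping. Short-chain genes held 12.3% ± 1.12, 3.62% ± 0.16 and 1.69% ± 0.02, without overlap. COL1A1 alone made up 49.8% ± 2.25 of it in VEH, 44.5% ± 0.26 with SLO ½ and 42.9% ± 0.47 with SLO, so that its share was lower at the dose at which its own level was highest. COL5A2 moved from 6.37% to 8.91% and 12.1%, and COL11A1 from 6.05% to 9.04% and 11.3%.

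**Figure D3:**
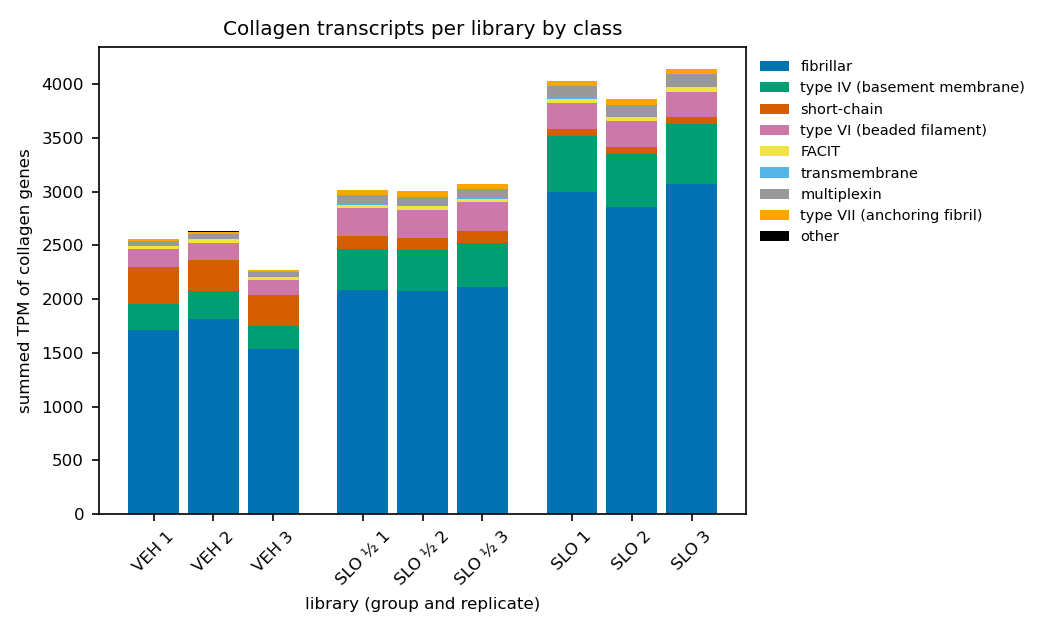
Summed TPM of the 44 collagen genes (vertical axis, from 0) in each of the 9 libraries, stacked by class. Totals are 2266 to 2629 for VEH, 3009 to 3073 for SLO ½ and 3863 to 4139 for SLO, the blue fibrillar part makes up most of each bar, and the dark orange short-chain part shrinks with dose.

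The ratio of chains that assemble together was compared within each library. COL1A1 to COL1A2 had a TPM ratio of 28.1, 30.8 and 30.7 in VEH, 36.0, 35.8 and 35.9 in SLO ½ and 34.9, 35.3 and 35.4 in SLO. The treated libraries lay above VEH, and SLO lay below SLO ½ by a small margin. The COL4A1 to COL4A2 ratio was 1.17, 1.19 and 1.14 in VEH, 1.44, 1.43 and 1.45 in SLO ½ and 1.60, 1.58 and 1.63 in SLO, ordered by dose without overlap. The COL6A1 to COL6A2 ratio averaged 0.898 ± 0.057 for VEH, 1.19 ± 0.007 for SLO ½ and 1.22 ± 0.061 for SLO. COL5A1 to COL5A2 stayed in 1 range, at 0.535 ± 0.067, 0.522 ± 0.015 and 0.509 ± 0.017, and its groups overlapped. How the authors set gene length bears on the height of each ratio but is the same in every library.

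**Figure D4:**
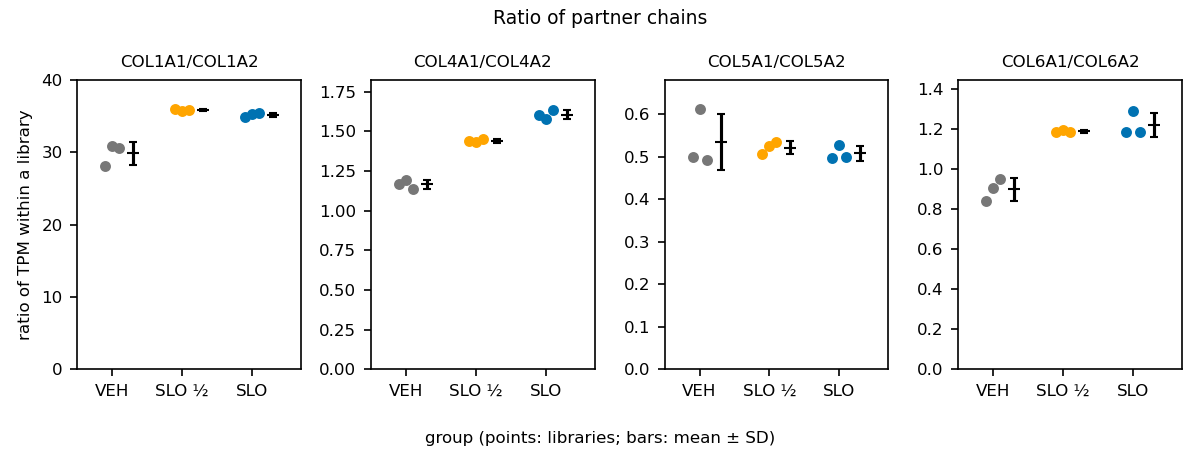
Ratio of TPM within a library (vertical axes, from 0) for COL1A1/COL1A2, COL4A1/COL4A2, COL5A1/COL5A2 and COL6A1/COL6A2, with libraries as points and mean ± SD as bars. The COL4A1/COL4A2 ratio steps up from 1.17 through 1.44 to 1.60, while COL5A1/COL5A2 stays near 0.5 in all groups.

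Type VI and type VII collagen genes reached their level at the lower dose. COL6A1 (chr21:45981770-46005050), which encodes a chain of the beaded filaments around cells, read 78.6, 75.1 and 68.4 TPM in VEH, 141, 145 and 144 in SLO ½ and 133, 132 and 126 in SLO. COL6A2 (chr21:46098112-46132848), its partner chain, read 93.9, 83.2 and 71.9 TPM, then 119, 121 and 122, then 112, 102 and 106. Both genes were highest in SLO ½, with SLO between SLO ½ and VEH and no overlap. COL6A1 rose by 1.00 ± 0.05 on the log2 scale in SLO ½ and 0.82 ± 0.05 in SLO (adjusted p = 1.74e-16 and 5.29e-15), and COL6A2 by 0.59 ± 0.06 and 0.38 ± 0.06 (adjusted p = 2.6e-09 and 3.77e-06). From SLO ½ to SLO they fell by 0.17 and 0.21 (adjusted p = 0.00246 and 0.00473), and with limma on log2(TPM + 1) the fall of COL6A2 was lost (adjusted p = 0.0918), as was that of COL6A1 when no filter was applied (-0.14, adjusted p = 0.114).

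COL7A1 (chr3:48564073-48595329), the collagen of the anchoring fibrils of skin, read 17.0, 19.1 and 14.1 TPM in VEH, 46.7, 54.5 and 47.1 in SLO ½ and 43.0, 55.5 and 46.8 in SLO. The change on the log2 scale was 1.61 ± 0.09 in SLO ½ and 1.55 ± 0.09 in SLO (adjusted p = 2.25e-15 and 2.1e-15). The treated groups overlapped and did not pass the test against each other (-0.06 ± 0.08, adjusted p = 0.535).

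The multiplexin COL18A1 (chr21:45405165-45513720), a basement membrane collagen whose C-terminal fragment is endostatin, read 46.3, 48.8 and 44.3 TPM in VEH, 85.2, 84.6 and 86.8 in SLO ½ and 115, 110 and 114 in SLO. The groups were separated and ordered by dose. Its log2 fold change was 1.29 ± 0.04 in SLO, 0.92 ± 0.04 in SLO ½ and 0.37 ± 0.04 between the doses (adjusted p = 1.32e-20, 1.31e-16 and 1.88e-08). COL15A1 (chr9:98943179-99070792), the other multiplexin, had 10, 8 and 12 reads in VEH, 26, 25 and 24 in SLO ½ and 39, 52 and 47 in SLO. It passed the filter only with the help of treated libraries, as VEH replicate 2 fell short. Its log2 fold changes were 2.23 ± 0.25 in SLO and 1.26 ± 0.29 in SLO ½ (adjusted p = 8.11e-09 and 0.000518), or 1.07 and 0.49 with limma on log2(TPM + 1), both still called.

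Of the FACIT genes, COL12A1 was the only one above 5 TPM. COL12A1 (chr6:75084326-75206267), which lines type I fibrils, read 21.2, 26.4 and 21.1 TPM in VEH, 25.6, 23.0 and 24.0 in SLO ½ and 29.4, 28.7 and 31.0 in SLO. SLO lay above both other groups, which overlapped. The log2 fold change was 0.39 ± 0.06 in SLO (adjusted p = 1.62e-06) and 0.13 ± 0.06 in SLO ½ (adjusted p = 0.0775). That SLO ½ value passed the test without VEH replicate 2 (0.23, adjusted p = 0.000287), under library-size scaling (0.18, adjusted p = 0.0129) and among genes with at least 10 reads in every library (0.15, adjusted p = 0.0425).

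COL14A1 (chr8:120059780-120373573), another FACIT of type I fibrils, had 2, 1 and 8 reads in VEH, 18, 15 and 23 in SLO ½ and 65, 57 and 59 in SLO. It passed the filter only through treated libraries, and the libraries were separated by group. Its log2 fold change was 4.04 ± 0.33 in SLO and 2.27 ± 0.43 in SLO ½ (adjusted p = 1.18e-11 and 6.76e-05). Those values were 5.16 and 3.38 without VEH replicate 3, which held most of the VEH reads. COL9A3 (chr20:62816244-62841159), a chain of the cartilage collagen IX, had 23, 17 and 20 reads in VEH, 52, 54 and 48 in SLO ½ and 35, 54 and 34 in SLO. COL16A1 (chr1:31652263-31704319) had means of 2.36 ± 0.14, 4.25 ± 0.33 and 3.68 ± 0.24 TPM. Both rose at each dose, COL9A3 by 1.31 ± 0.22 in SLO ½ and 1.07 ± 0.23 in SLO and COL16A1 by 0.90 ± 0.12 and 0.65 ± 0.13 on the log2 scale (adjusted p = 1.34e-05, 0.000187, 4.58e-07 and 5.33e-05). With limma on log2(TPM + 1) the COL9A3 values were 0.81 and 0.65, and those of COL14A1 0.44 and 1.31, in SLO ½ and SLO. Neither COL9A3 nor COL16A1 passed the test between the doses.

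The transmembrane collagens were split in direction. COL13A1 (chr10:69801880-69964275), found at cell adhesions and the neuromuscular junction, had 178, 137 and 235 reads in VEH, 118, 127 and 100 in SLO ½ and 82, 83 and 76 in SLO, or 4.44 ± 0.69, 2.64 ± 0.22 and 2.02 ± 0.03 TPM. The groups were separated, and the log2 fold change was -1.14 ± 0.13 in SLO and -0.71 ± 0.12 in SLO ½ (adjusted p = 5.76e-09 and 9.08e-06). Between the doses it fell by 0.42 (adjusted p = 0.0145), a call that was lost without SLO ½ replicate 2 (adjusted p = 0.0769) and with limma on log2(TPM + 1) (adjusted p = 0.0828). COL25A1 (chr4:108808725-109302752), a neuronal collagen whose shed fragment was isolated from amyloid plaques, had 14, 15 and 17 reads in VEH, 54, 52 and 68 in SLO ½ and 52, 46 and 43 in SLO. It rose by 1.86 ± 0.22 in SLO ½ and 1.65 ± 0.23 in SLO (adjusted p = 4.73e-08 and 3.84e-07), or by 0.88 and 0.77 with limma on log2(TPM + 1). COL17A1 (chr10:104031286-104085880), a hemidesmosome collagen, had 13, 6 and 23 reads in VEH, 42, 50 and 40 in SLO ½ and 25, 31 and 30 in SLO. It passed the filter only with the help of treated libraries, as VEH replicate 2 fell short. Its log2 fold change of 1.60 ± 0.27 in SLO ½ (adjusted p = 1.01e-05) became 2.04 without VEH replicate 3. Its value of 1.08 ± 0.29 in SLO (adjusted p = 0.00185) ranged from 0.78 without VEH replicate 2 to 1.52 without VEH replicate 3. With limma on log2(TPM + 1) it was 0.52, and that call was lost when no filter was applied (adjusted p = 0.0572).

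Genes whose products make, process or bind collagens were counted from fixed lists. All 22 genes for modification and folding of the chains inside the cell were tested, and all but P4HA3 were at the testable level in every group. Of these 21, 12 rose and 5 fell in SLO, and 10 rose and 4 fell in SLO ½. Among genes alike in level 31.9% rose and 35.5% fell in SLO, and 25.9% rose and 28.5% fell in SLO ½. P4HA2, a prolyl 4-hydroxylase subunit, read 42.7, 43.9 and 44.0 TPM in VEH, 62.4, 60.0 and 61.0 in SLO ½ and 77.5, 77.2 and 77.1 in SLO. P3H1 (a prolyl 3-hydroxylase) and PLOD1 (a lysyl hydroxylase) were likewise ordered by dose, with log2 fold changes of 1.01 ± 0.05 and 0.79 ± 0.05 in SLO (adjusted p = 1.56e-16 and 6.56e-15). The genes that fell in SLO were P3H3, CRTAP, FKBP10, FKBP14 and MIA2. The first 4 of these also act on collagen chains in the endoplasmic reticulum, and MIA2 acts in export from it.

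Of 14 genes for extracellular processing and cross-linking, 13 were tested and 12 were at the testable level in every group. Of these 12, 8 rose and 1 fell (PCOLCE2) in SLO, and 6 rose and 2 fell (PCOLCE2 and LOXL1) in SLO ½. BMP1, which removes the C-propeptide of procollagen, read 17.7, 18.5 and 16.7 TPM in VEH, 28.7, 29.1 and 29.2 in SLO ½ and 44.3, 47.5 and 44.3 in SLO, without overlap. BMP1 rose by 1.38 ± 0.06 on the log2 scale in SLO (adjusted p = 2.13e-18). ADAMTS14, which removes the N-propeptide, passed the filter only through treated libraries and had to be higher there. It rose by 3.00 ± 0.21 from a low level of 0.479 to 0.668 TPM in VEH to 4.13 to 4.70 TPM in SLO (adjusted p = 4.53e-13). PXDN, the peroxidase that cross-links type IV collagen, read 194, 196 and 182 TPM in VEH, 240, 234 and 241 in SLO ½ and 300.4, 289 and 305 in SLO, and its log2 fold change was 0.65 ± 0.04 in SLO (adjusted p = 2e-14).

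Of 10 collagen receptors 8 were tested, and at each dose 7 of them rose and ITGA10 did not pass the test. ITGA1, the α1 integrin subunit that binds type IV collagen, read 2.29, 2.27 and 2.12 TPM in VEH, 6.74, 6.80 and 6.80 in SLO ½ and 15.3, 13.9 and 15.6 in SLO. The libraries were separated by group and the log2 fold change was 2.75 ± 0.07 in SLO and 1.65 ± 0.08 in SLO ½ (adjusted p = 4.52e-23 and 2.57e-16). ITGA11, a receptor for fibrillar collagen, rose by 1.87 ± 0.08 and MRC2, which takes up collagen for degradation, by 0.69 ± 0.08 in SLO (adjusted p = 3.09e-18 and 4.57e-09).

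All 15 basement membrane partners were tested, and 14 were at the testable level in every group. Of these 14, 10 rose in SLO and 9 in SLO ½, and the others did not pass the test. LAMA4, a laminin chain that passed the filter only through SLO ½, rose there and did not pass the test in SLO. NID2, which links laminin to type IV collagen, read 10.0, 11.4 and 12.1 TPM in VEH, 33.0, 33.7 and 34.1 in SLO ½ and 33.0, 30.7 and 30.5 in SLO. Like COL7A1, it stood well above VEH at both doses and did not pass the test between them (adjusted p = 0.0728). HSPG2 (perlecan) and LAMB2 (a laminin chain) rose by 0.99 ± 0.06 and 0.81 ± 0.05 in SLO (adjusted p = 4.22e-15 and 8.83e-15).

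Of 10 fibril-associated genes 6 were tested, and 4 rose and 2 fell (FN1 and THBS1) in SLO, and 5 rose and 1 fell (FN1) in SLO ½. FBN1, the microfibril protein fibrillin, read 41.0, 51.9 and 41.7 TPM in VEH, 147, 136 and 132 in SLO ½ and 191, 204 and 199 in SLO, with a log2 fold change of 2.15 ± 0.06 in SLO (adjusted p = 1.79e-22). SPARC, a collagen-binding matricellular protein, rose by 0.95 ± 0.04 (adjusted p = 4.88e-17). FN1, the fibronectin on which collagen fibrils are laid down, read 6185, 6468 and 5576 TPM in VEH, 4523, 4173 and 4350 in SLO ½ and 3166, 3354 and 3382 in SLO. It moved opposite to COL1A1, by -0.87 ± 0.05 in SLO and -0.44 ± 0.05 in SLO ½ on the log2 scale (adjusted p = 3.04e-15 and 1.28e-08). As background for these lists, 32.9% of all tested genes rose and 32.1% fell in SLO, and 26.7% rose and 25.3% fell in SLO ½. Among genes at the testable level in every group 31.9% rose and 35.5% fell at the full dose, and 25.9% rose and 28.5% fell at the lower dose.

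**Figure D5:**
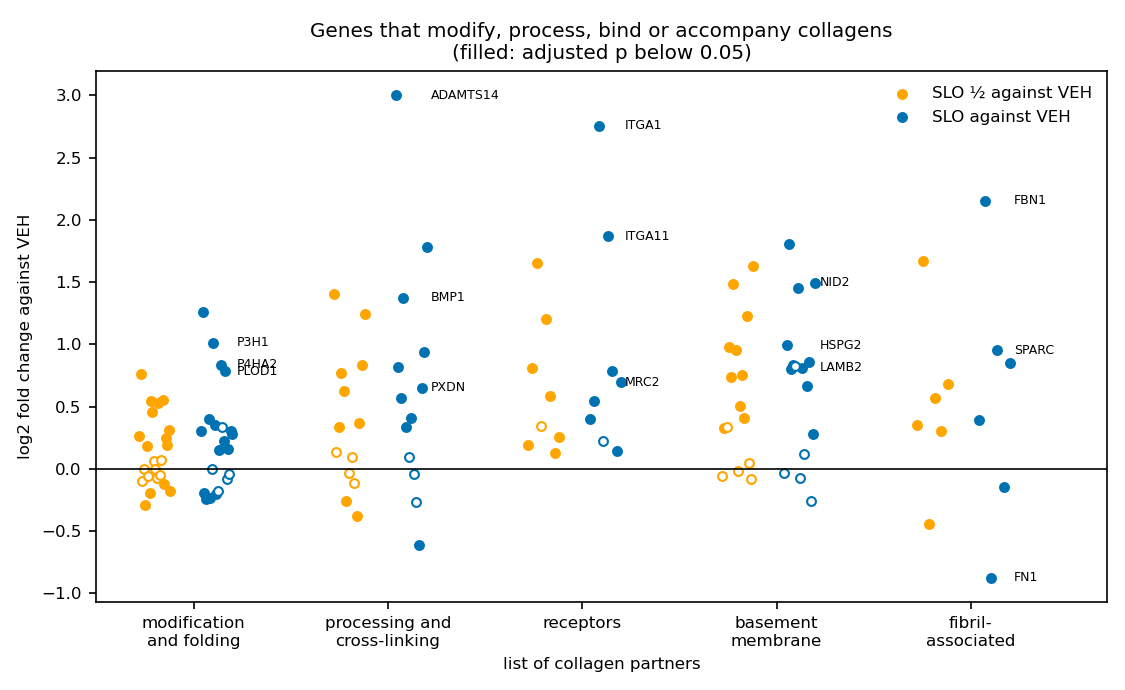
Log2 fold change against VEH (vertical axis) of the tested genes of 5 lists of collagen partners, with SLO ½ in orange and SLO in blue and filled points past an adjusted p of 0.05. Labels mark the 3 genes of each list with the smallest p in SLO, with ITGA1 at 2.75 among the receptors and FN1 at -0.87 among the fibril-associated genes.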

How the data were processed

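RNA of 9 HMC3 libraries was measured, 3 each of VEH, SLO ½ and SLO, grouped by the sample names. The authors used Trimmomatic 0.38 for trimming and STAR 2.7.1a for alignment to GRCh38, and deposited raw read counts per gene, counted by strand. The authors also deposited TPM. The annotation release and the gene length behind TPM are not given in the sources used here. Lines without a gene were left out: unmapped reads (0.883% to 0.984%), reads with several matches (7.16% to 8.52%), reads outside genes (5.54% to 8.38%) and ambiguous reads (3.03% to 3.26%).

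Counts were fitted in R 4.3.3 with edgeR 4.0.16 (filterByExpr, TMM factors 0.968 to 1.035, quasi-likelihood test, 3 groups, all libraries). P-values were adjusted by Benjamini-Hochberg over 14727 of 61544 genes. The fit was also run on simulated counts. These had few changed genes and the same spread for every gene, unlike these data, and so cannot show how the test performs here. TPM gave levels, sums and ratios, described by mean and SD without a test. Alternatives used DESeq2 1.42.0, limma 3.58.1 on log2(TPM + 1) and log2(TPM + 0.1), other scalings and filters, and left out each library in turn. The members, classes, lists and tests were chosen with earlier results of these data known. Every member is named, with values per library for those of at least 5 TPM in a group or called with an absolute log2 fold change of at least 1, and the 3 genes of each partner list with the smallest p in SLO are named. Other genes were named after their values were seen. Coordinates are the authors' for GRCh38, and sequences are from RefSeq.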

Additional observations from a re-analysis of the deposited data

How the results depend on the processing

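Direction held for every called collagen gene in all alternatives run. Of 509 gene values under alternatives, 508 kept their call in SLO against VEH (the exception was COL17A1 with limma on log2(TPM + 1) without a filter, 0.52, adjusted p = 0.0572), 491 in SLO ½ against VEH (12 lost in 3 genes, 6 gained in 4) and 496 between the doses (9 lost in 4 genes, 4 gained in 3). The count of collagen genes lower in SLO than in SLO ½ was 4, and 2 with limma on log2(TPM + 1), 2 on log2(TPM + 0.1) and 1 without a filter, where COL13A1 and COL6A2, and then also COL6A1, missed the threshold. The cause was not tested. Other counts of calls stayed within 1.5 times, except for fibrillar genes that fell when a library was left out (next paragraph).

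Leaving out each library in turn gave 24 rising and 2 falling collagen genes in SLO in every case, 19 to 21 rising and 2 to 3 falling in SLO ½, and 14 to 15 higher and 3 to 5 lower between the doses. The filter was set once on all libraries. The counts cover all 27 tested genes, with the 4 that missed the testable level in a VEH library. Of all 14727 tested genes, 4524 to 4823 rose and 4407 to 4738 fell in SLO. In SLO ½ 3415 to 3969 rose and 3377 to 3746 fell. Between the doses 2645 to 3165 were higher and 2512 to 3089 lower. Fibrillar genes that fell numbered 0 to 1 in SLO ½ (COL1A2, without VEH replicate 3) and 0 to 1 between the doses (COL27A1, without SLO replicate 2).

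Libraries with the same replicate number deviated together only weakly (correlations of 0.003 to 0.087 in 9 pairs, against -0.062 to 0.037 in 18 others), so that the numbers were not taken as pairs. With the replicate block, calls numbered 24 rises and 2 falls for SLO, 20 rises and 2 falls for SLO ½, and 14 rises and 4 falls between the doses, as without it. Adding 1 to TPM lowers the log2 fold changes of genes near or below that level: with limma on log2(TPM + 1), COL14A1, COL2A1, COL11A2, COL15A1, COL25A1, COL9A3 and COL17A1 had 1.31, 1.24, 1.16, 1.07, 0.77, 0.65 and 0.52 in SLO, each over 1.5 times below the count-based value.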
